A study of Mus musculus with 12 samples.

Results

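Lung tumours of mice exposed to house dust mite (HDM) were compared with lung tumours of mice given VEH, the control treatment, which the labels do not spell out. Members were the libraries whose titles give tumour tissue and either treatment: 3 HDM tumours and 3 VEH tumours, 6 of the 12 libraries of the series. The other 6 libraries come from normal lung next to tumours, 3 per treatment. RNA was measured by sequencing, and the deposited values are raw counts per gene. All tumours are called LLC, a name the labels leave unexplained, and the series describes the HDM exposure as chronic. Strain, genotype, sex, age, dose, route and duration are not given in the sources used here. Tumours were cut out by hand under a microscope, so a piece can hold tumour cells, infiltrating cells and attached lung. No label states that the libraries of a group came from separate animals, so p-values measure only the spread between these libraries, which may be technical.

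Of the 21 genes that passed the adjusted test between HDM and VEH tumours, 10 belong to the lists of antigen presentation or interferon genes and 11 do not. The lists were chosen with earlier results of these data known, so this count is a description and no separate support. Interferon gamma, a cytokine made mainly by T and NK cells, acts through JAK kinases on transcription factors in the responding cell, and type I interferons act through a related pathway that includes IRF9. Among the genes they induce are the catalytic subunits of the immunoproteasome, which cut proteins into peptides, the TAP transporter, which carries peptides into the endoplasmic reticulum, and the MHC class I molecules that show them to CD8 T cells. CIITA, another induced factor, switches on the MHC class II genes, whose products show peptides to CD4 T cells.

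Total counts ran from 20608682 to 30187882 in the 6 tumour libraries, and mitochondrial transcripts took 0.342% to 1.79% of them. Lung epithelium was unevenly present in the tumour pieces. The summed level of 14 alveolar markers was 3066, 3110 and 175 CPM (counts scaled to a common library total) in HDM replicates 1, 2 and 3, and 2865, 10095 and 2992 CPM in VEH replicates 1, 2 and 3. HDM replicate 3 stood lowest and VEH replicate 2 highest. The 10 airway markers had the same extremes, with 24.2 CPM in HDM replicate 3 and 20512 CPM in VEH replicate 2. In the adjacent lung the alveolar sum was 19449 to 50748 CPM, above every tumour library.

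By the prefix in its name, every tumour library is linked to 1 normal library, giving 6 linked pairs. In 2 of these the treatment labels are opposite. HDM tumour replicate 2 is linked to normal VEH replicate 2, and VEH tumour replicate 3 to normal HDM replicate 3. In these 2 normal libraries the B and plasma cell markers sided with the other label. Their summed level was 143 CPM in normal HDM replicate 3, against 6356 and 3549 CPM in normal HDM replicates 1 and 2. It was 3219 CPM in normal VEH replicate 2, against 169 and 82.8 CPM in normal VEH replicates 1 and 3. The labels were kept as given, and the normal libraries enter the tumour comparison through the shared estimate of spread.

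Of 22190 genes tested, 21 passed an adjusted p of 0.05 between HDM and VEH tumours (edgeR quasi-likelihood test, Benjamini-Hochberg adjustment), which is 0.0946% of genes. In HDM tumours 19 genes fell (0.0856%) and 2 rose (0.00901%). The 19 falls ran from 0.92 to 3.76 on the log2 scale with a median log2 difference of -1.66, where the median over all genes was -0.03. For each of the 21, the 3 HDM libraries did not overlap the 3 VEH libraries, a separation that 22% of all genes tested showed. Before adjustment 3698 genes (16.7%) had a p below 0.05, of which 2516 (11.3%) were lower and 1182 (5.33%) higher. Of the 19 genes that fell, 11 belong to the gene lists described here and 8 to none. The 35 lists name 436 genes in all and were chosen with earlier results of these data known, so the 11 are no separate support. On chromosome 17, which holds the MHC and 4.99% of the genes tested, lie 7 of the 19.

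The count of 21 genes moved with the libraries used. It was 0 genes without HDM replicate 1, HDM replicate 2 or any 1 of the 3 VEH replicates, and 24 genes without HDM replicate 3, of which 9 were among the 21. Without the 2 normal libraries of conflicting prefix it was also 0, with a smallest adjusted p of 0.0619, and DESeq2's Wald test gave 1311 genes, all 21 included. No alternative turned the direction of any of the 21 where it was fitted. Because the groups do not overlap in these genes, leaving out libraries could hardly do so.

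**Figure D1:**
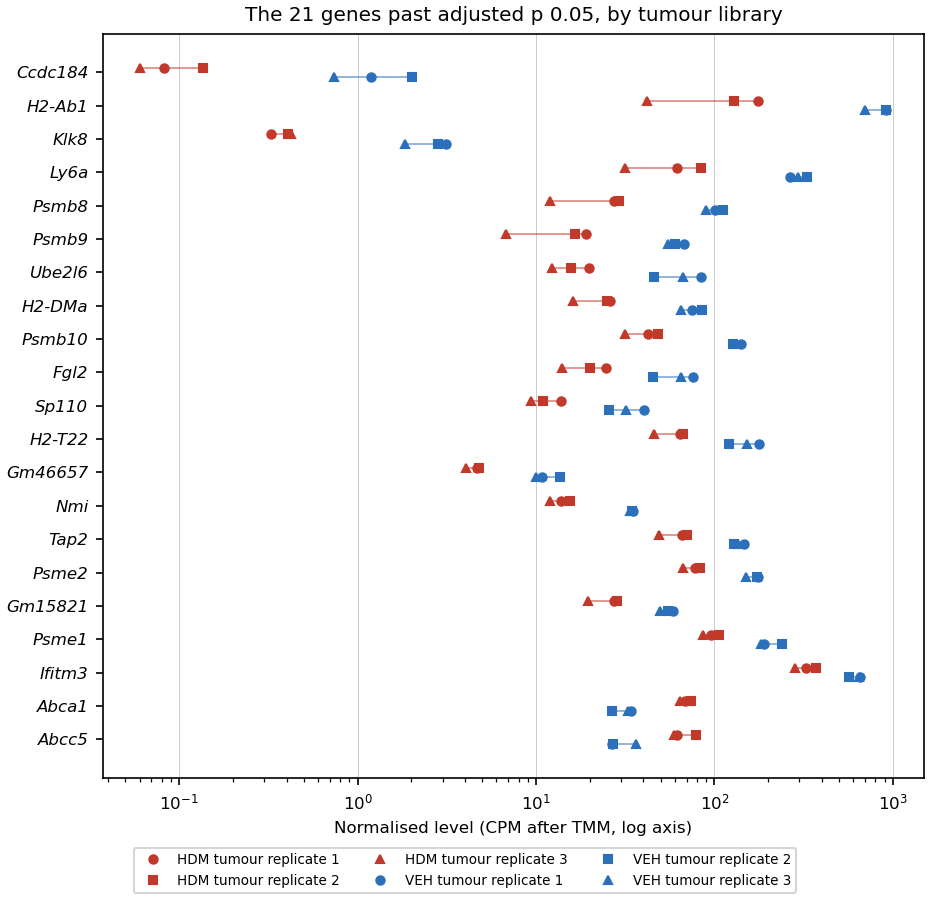
Level of each of the 21 genes past an adjusted p of 0.05 in the 6 tumour libraries, in CPM on a log axis, with HDM in red, VEH in blue and a marker shape per replicate; thin lines span each group of 3. In the 19 genes that fell every HDM library lies to the left of every VEH library, and HDM replicate 3 (red triangle) is the lowest of the 6 in 18 of them.

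The immunoproteasome fell as a whole. All 5 measured genes of the list, the 3 catalytic subunits Psmb8, Psmb9 and Psmb10 and the PA28 activator subunits Psme1 and Psme2, passed the test, against 0.0856% of all genes, with a list median of -1.69. Psmb10 (chromosome 8, 106662362 to 106665077, GRCm39), the subunit beta2i, was at 42.4, 48.3 and 31.7 CPM in HDM replicates 1, 2 and 3 and at 141, 127 and 128 CPM in VEH replicates 1, 2 and 3. The HDM libraries were all under the lowest VEH library by more than the spread within either group, and the gene fell by 1.69 ± 0.20 (SE) on the log2 scale (edgeR quasi-likelihood adjusted p = 0.0274).

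Psmb8 (chromosome 17, 34416690 to 34420428), the subunit beta5i, was at 27.5, 29.3 and 12.0 CPM under HDM and at 100, 111 and 90.3 CPM under VEH. HDM replicate 3 stood apart below the other HDM libraries, and the groups did not overlap; the fall was 2.13 ± 0.28 on the log2 scale (edgeR quasi-likelihood adjusted p = 0.034). Psmb9 (chromosome 17, 34400960 to 34406738), the subunit beta1i, was at 19.2, 16.6 and 6.82 CPM under HDM and at 67.7, 59.8 and 55.2 CPM under VEH, a fall of 2.10 ± 0.32 (edgeR quasi-likelihood adjusted p = 0.0446). Again HDM replicate 3 was the lowest library. Tap1 lies across Psmb9 on the other strand, and because the strand setting of the counting is not given in the sources used here, reads of such pairs cannot be told apart with certainty.

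Psme1 and Psme2 encode the alpha and beta subunits of PA28, the cap that opens the proteasome core, and lie next to each other on chromosome 14 (55815190 to 55822034 and 55824895 to 55829173). Psme1 was at 95.4, 106 and 86.5 CPM under HDM and at 189, 239 and 184 CPM under VEH, and fell by 1.09 ± 0.14 on the log2 scale. Psme2 was at 77.7, 82.9 and 66.4 CPM under HDM and at 175, 173 and 151 CPM under VEH, and fell by 1.13 ± 0.14. The adjusted p was 0.0274 for both (edgeR quasi-likelihood test). The nearly identical copy Psme2b had a log2 difference of -1.30 that did not pass (edgeR adjusted p = 0.0527), and reads may be split between the copies.

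The constitutive proteasome moved little beside it. None of its 16 measured genes passed the adjusted test, 3 were lower at an unadjusted p below 0.05 (1 without HDM replicate 1 and 5 without HDM replicate 2), and the list median was -0.22. Those 3 are 18.8% of the list, where 11.3% of all genes were lower at that threshold. The log2 difference was negative in 14 of the 16, and 4 were lower without overlap, against 10.7% of all genes. Psma2, with the smallest p of the list, was at 66.4, 89.3 and 101 CPM under HDM and at 118, 122 and 116 CPM under VEH. Its log2 difference of -0.48 ± 0.14 is less than that of any immunoproteasome gene.

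**Figure D2:**
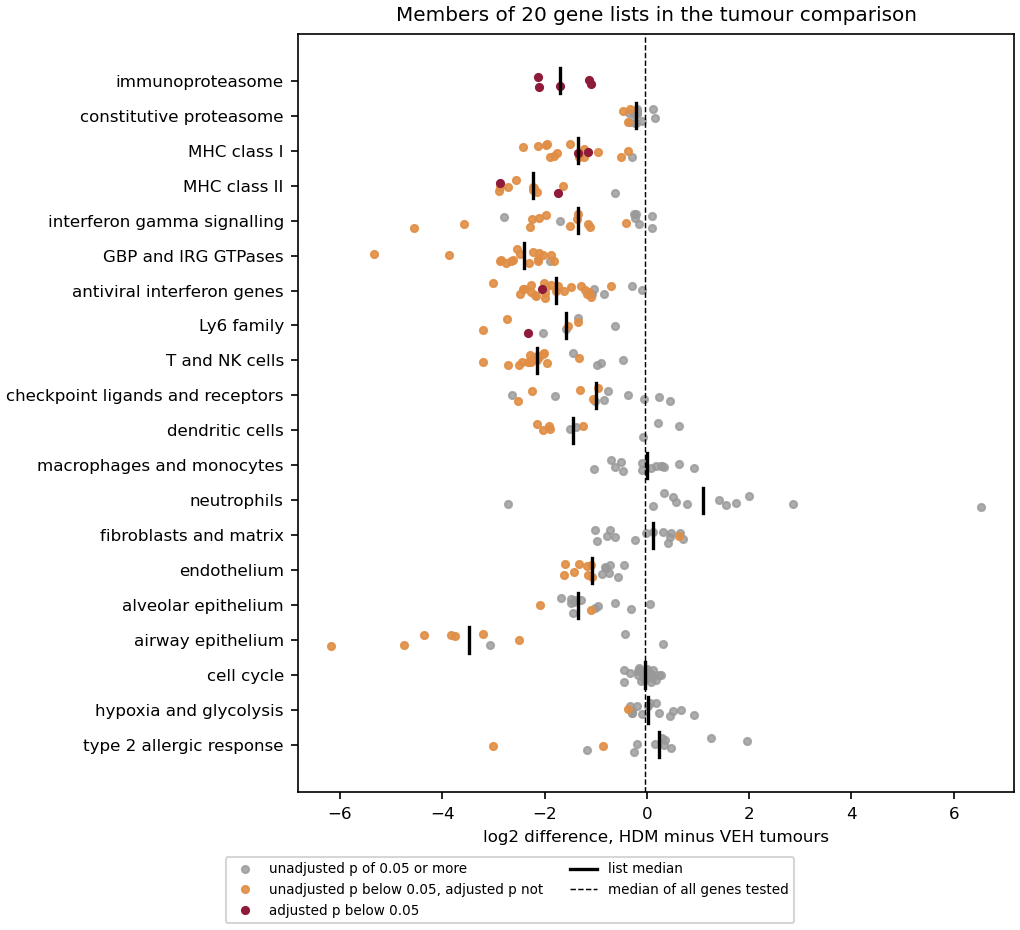
Difference between HDM and VEH tumours on the log2 scale (horizontal axis) for the members of 20 gene lists, 1 point per gene, coloured by whether it passed the adjusted test, only the unadjusted one, or neither; black bars are list medians and the dashed line is the median of all genes, -0.03. The immunoproteasome, MHC, GBP and IRG, antiviral and T and NK cell lists lie to the left, with medians from -2.40 to -1.35. The airway (-3.47), Ly6 (-1.59), dendritic cell (-1.45), interferon gamma (-1.35), alveolar (-1.35), endothelial (-1.07) and checkpoint (-0.99) lists also lie to the left. The cell cycle and macrophage lists centre near 0, and the neutrophil list lies to the right (1.10). None of the 12 neutrophil genes had an unadjusted p below 0.05. Their summed levels overlapped, at 103, 133 and 45.4 CPM in HDM replicates 1, 2 and 3 and 40.7, 457 and 285 CPM in VEH replicates 1, 2 and 3.

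For MHC class I presentation, all 17 measured genes had negative log2 differences, 16 with an unadjusted p below 0.05 and 15 without overlap between the groups. Of all genes, 11.3% were lower at that threshold and 10.7% were lower without overlap. The list median was -1.35, and 2 genes passed the adjusted test. Tap2 (chromosome 17, 34422501 to 34435829), which encodes one chain of the peptide transporter, was at 65.5, 70.3 and 48.9 CPM under HDM and at 146, 128 and 136 CPM under VEH. The gap between the groups was wider than the range of either, and the fall was 1.15 ± 0.15 on the log2 scale (edgeR quasi-likelihood adjusted p = 0.0274). H2-T22 (chromosome 17, 36348020 to 36353650), a nonclassical class I gene, was at 63.8, 67.0 and 46.0 CPM under HDM and at 179, 121 and 152 CPM under VEH, a fall of 1.35 ± 0.19 (edgeR quasi-likelihood adjusted p = 0.0446). Class I genes are near-identical in part, so reads may be shared among them. Tap2 and H2-T22 also overlap genes on the opposite strand, Gm15821 and Gm20496 for Tap2 and A930015D03Rik for H2-T22. Gm15821 was itself among the 19 genes that fell.

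Classical class I genes had differences of similar size that did not pass. H2-K1 was at 425, 346 and 119 CPM under HDM and at 1101, 1725 and 1087 CPM under VEH, a log2 difference of -2.14 ± 0.42 (edgeR quasi-likelihood adjusted p = 0.0936). B2m, the light chain that every class I molecule needs, was at 688, 619 and 284 CPM under HDM and at 1953, 1640 and 1770 CPM under VEH, a log2 difference of -1.75 ± 0.38 (edgeR quasi-likelihood adjusted p = 0.118). In both genes the groups were separate, and HDM replicate 3 was at less than 50% of the other HDM libraries. Tap1 had -1.97, Tapbp -1.22 and H2-D1 -1.32, all without overlap. The chaperones Calr (-0.30) and Pdia3 (-0.38), which also serve proteins outside this pathway, differed least.

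The MHC class II list had the lowest median of the presentation lists. All 12 measured members were negative, 11 with an unadjusted p below 0.05 and without overlap, with a median of -2.22. Over all genes 11.3% were lower at that threshold and 10.7% were lower without overlap. H2-Ab1 (chromosome 17, 34476663 to 34488393), the beta chain of I-A, was at 177, 128 and 41.9 CPM under HDM and at 922, 913 and 701 CPM under VEH. The groups were far apart, with HDM replicate 3 again the lowest, and the fall was 2.87 ± 0.43 on the log2 scale, a 7.31-fold lower fitted level (edgeR quasi-likelihood adjusted p = 0.0446). H2-DMa (chromosome 17, 34338515 to 34358958), a chain of the molecule that loads peptides onto class II, was at 26.0, 25.0 and 16.0 CPM under HDM and at 74.8, 85.1 and 64.7 CPM under VEH, a fall of 1.74 ± 0.22 (edgeR quasi-likelihood adjusted p = 0.0274). It overlaps Brd2 on the opposite strand, which had 67461 counts in total against 16783 for H2-DMa.

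The other class II chains and their regulator had values of the same order that did not pass. H2-Aa was at 143, 123 and 33.1 CPM under HDM against 643, 785 and 530 CPM under VEH, with a log2 difference of -2.71 ± 0.45. Cd74, the invariant chain, was at 413, 280 and 71.5 CPM against 1503, 1771 and 1233 CPM, with -2.56 ± 0.49. Ciita was at 12.1, 6.28 and 2.88 CPM against 35.6, 29.0 and 34.0 CPM, with -2.22 ± 0.44. For these 3 genes the groups stayed apart, and edgeR quasi-likelihood adjusted p-values were 0.0616 to 0.0936. The exception in the list was Ctss, a protease that trims the invariant chain and is also made by macrophages in general, at 417, 588 and 164 CPM under HDM and 791, 570 and 437 CPM under VEH, where the groups overlapped.

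Because the genes above are known interferon targets, the 250 bases before the start of each gene's Ensembl canonical transcript (GRCm39, GENCODE M39) were searched on both strands. This start can lie inside the gene's full span, as for H2-Ab1, and other transcript starts were not searched. The search used 2 letter patterns. The GAS pattern TTCNNNGAA is known from genes induced by interferon gamma. The ISRE core, GAAA and a further GAAA with 2 bases between them, is known from genes induced by type I interferons. Of these windows 7 are shown, 5′ to 3′ on the gene's strand, to set genes with a match beside genes without one; capitals mark every match. They lie at chr17:34481933-34482182 (H2-Ab1), chr17:34416440-34416689 (Psmb8), chr17:36353651-36353900 (H2-T22, minus strand), chr11:48762248-48762497 (Irgm1, minus strand), chr11:58090194-58090443 (Irgm2), chr4:156285304-156285553 (Isg15, minus strand) and chr16:20245193-20245442 (Abcc5, minus strand).
H2-Ab1: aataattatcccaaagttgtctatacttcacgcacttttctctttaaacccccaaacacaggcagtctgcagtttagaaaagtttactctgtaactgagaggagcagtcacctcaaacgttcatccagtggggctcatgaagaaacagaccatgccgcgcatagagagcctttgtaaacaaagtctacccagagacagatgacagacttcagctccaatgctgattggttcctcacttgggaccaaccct
Psmb8: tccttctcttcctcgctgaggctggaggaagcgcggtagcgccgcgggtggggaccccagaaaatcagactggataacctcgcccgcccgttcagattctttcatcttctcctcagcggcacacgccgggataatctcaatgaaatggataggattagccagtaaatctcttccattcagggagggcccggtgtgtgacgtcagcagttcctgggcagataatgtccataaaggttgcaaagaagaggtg
H2-T22: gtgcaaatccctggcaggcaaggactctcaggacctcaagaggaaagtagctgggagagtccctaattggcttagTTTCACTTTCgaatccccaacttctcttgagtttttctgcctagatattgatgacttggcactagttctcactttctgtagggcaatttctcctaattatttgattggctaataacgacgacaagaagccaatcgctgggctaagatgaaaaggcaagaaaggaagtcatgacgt
Irgm1: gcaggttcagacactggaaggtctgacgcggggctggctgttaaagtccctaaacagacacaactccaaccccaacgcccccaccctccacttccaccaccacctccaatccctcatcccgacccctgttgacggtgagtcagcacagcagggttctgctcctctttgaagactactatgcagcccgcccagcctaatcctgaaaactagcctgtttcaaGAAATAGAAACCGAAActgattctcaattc
Irgm2: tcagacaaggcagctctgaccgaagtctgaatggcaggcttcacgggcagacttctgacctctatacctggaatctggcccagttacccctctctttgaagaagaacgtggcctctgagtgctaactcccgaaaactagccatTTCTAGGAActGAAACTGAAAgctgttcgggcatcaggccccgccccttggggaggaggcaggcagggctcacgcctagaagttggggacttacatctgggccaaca
Isg15: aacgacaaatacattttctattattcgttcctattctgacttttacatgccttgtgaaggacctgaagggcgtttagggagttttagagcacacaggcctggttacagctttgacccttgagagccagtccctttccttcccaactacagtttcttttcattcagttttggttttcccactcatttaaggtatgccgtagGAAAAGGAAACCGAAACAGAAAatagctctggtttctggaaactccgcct
Abcc5: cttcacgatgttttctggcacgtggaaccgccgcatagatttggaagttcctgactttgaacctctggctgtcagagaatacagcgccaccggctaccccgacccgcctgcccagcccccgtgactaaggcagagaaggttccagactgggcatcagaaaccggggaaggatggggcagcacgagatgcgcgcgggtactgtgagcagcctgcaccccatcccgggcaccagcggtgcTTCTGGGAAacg
Among the 19 genes that fell, 1 window (H2-T22) held the ISRE core and none held GAS, against 3.24% and 6.77% of 22151 windows of all genes tested. Of the 2 genes that rose, Abcc5 held a GAS match. Among the 18 GBP and IRG genes 9 windows held either pattern (50%), and among 29 antiviral genes 13 did (44.8%), against 9.68% of all windows. The shares were 3 of 12 for MHC class II (25%), 3 of 17 for MHC class I (17.6%), 0 of 5 for the immunoproteasome and 5 of 21 for T and NK cells (23.8%). Irgm1 and Isg15 carry 2 and 3 overlapping ISRE cores, and Irgm2 carries a GAS match followed by an ISRE core. A match in these letters is a description of the sequence and not evidence of binding.

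The interferon-inducible GTPases, GBP proteins and IRG proteins that act against intracellular microbes, had the lowest median of the interferon lists, -2.40. All 18 measured genes were negative and 17 had an unadjusted p below 0.05, where 11.3% of all genes did so in that direction, but none passed the adjusted test. Irgm1, the closest, was at 44.2, 44.1 and 14.8 CPM under HDM and at 187, 114 and 180 CPM under VEH, a log2 difference of -2.22 ± 0.35 (edgeR quasi-likelihood adjusted p = 0.0527). Igtp was at 24.7, 30.7 and 6.34 CPM against 166, 104 and 119 CPM, a log2 difference of -2.66 ± 0.48. Gbp2 was at 55.3, 123 and 14.4 CPM against 380, 154 and 257 CPM, a log2 difference of -2.04 ± 0.62. In these genes HDM replicate 3 was at the bottom, and VEH replicate 2 was the lowest VEH library. The summed level of the list was 299, 367 and 71.8 CPM under HDM and 1575, 817 and 1217 CPM under VEH.

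In interferon gamma signalling, 12 of 20 measured genes were lower at an unadjusted p below 0.05, where 11.3% of all genes were. None was higher at that threshold, and the median was -1.35. Without the 4 libraries of conflicting prefixes 7 of 19 were lower. Irf9, a DNA-binding factor of the interferon response, was at 29.8, 21.9 and 16.6 CPM under HDM and at 67.0, 45.2 and 63.3 CPM under VEH, a log2 difference of -1.36 ± 0.23 (edgeR quasi-likelihood adjusted p = 0.0584). Irf1, an interferon-induced transcription factor, was at 67.5, 54.3 and 34.5 CPM against 135, 155 and 153 CPM, a log2 difference of -1.50 ± 0.32. Cxcl9, a chemokine that attracts T cells through CXCR3, was at 9.61, 21.6 and 2.15 CPM against 165, 116 and 116 CPM, a log2 difference of -3.58 ± 1.00. The groups were apart in all 3 genes. The receptor chains and kinases upstream differed little: Ifngr1 had -0.22, Ifngr2 -0.25, Jak1 0.10 and Jak2 -0.24. Ifng itself was near the detection limit, at 0, 0.546 and 0 CPM under HDM and 0.552, 0.0744 and 1.20 CPM under VEH.

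All 29 measured antiviral interferon genes were negative, with a median of -1.77. Of these, 24 had an unadjusted p below 0.05, where 11.3% of all genes were lower at that threshold. The count of 24 was 10 without the 4 libraries of conflicting prefixes. Ube2l6 (chromosome 2, 84628630 to 84640783), the enzyme that conjugates ISG15 to proteins, was the one that passed. It was at 19.7, 15.7 and 12.3 CPM under HDM and at 84.5, 46.0 and 67.0 CPM under VEH, and fell by 2.05 ± 0.26 on the log2 scale (edgeR quasi-likelihood adjusted p = 0.0274). Isg15 was at 22.9, 12.8 and 5.52 CPM against 121, 33.2 and 76.3 CPM, and Irf7 at 48.6, 30.7 and 11.6 CPM against 182, 105 and 127 CPM. Separation was less regular here than in the MHC lists: 16 of the 29 did not overlap, against 10.7% of all genes on the lower side. For Rsad2, Oas3 and Rigi VEH replicate 2 lay within the HDM range.

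**Figure D3:**
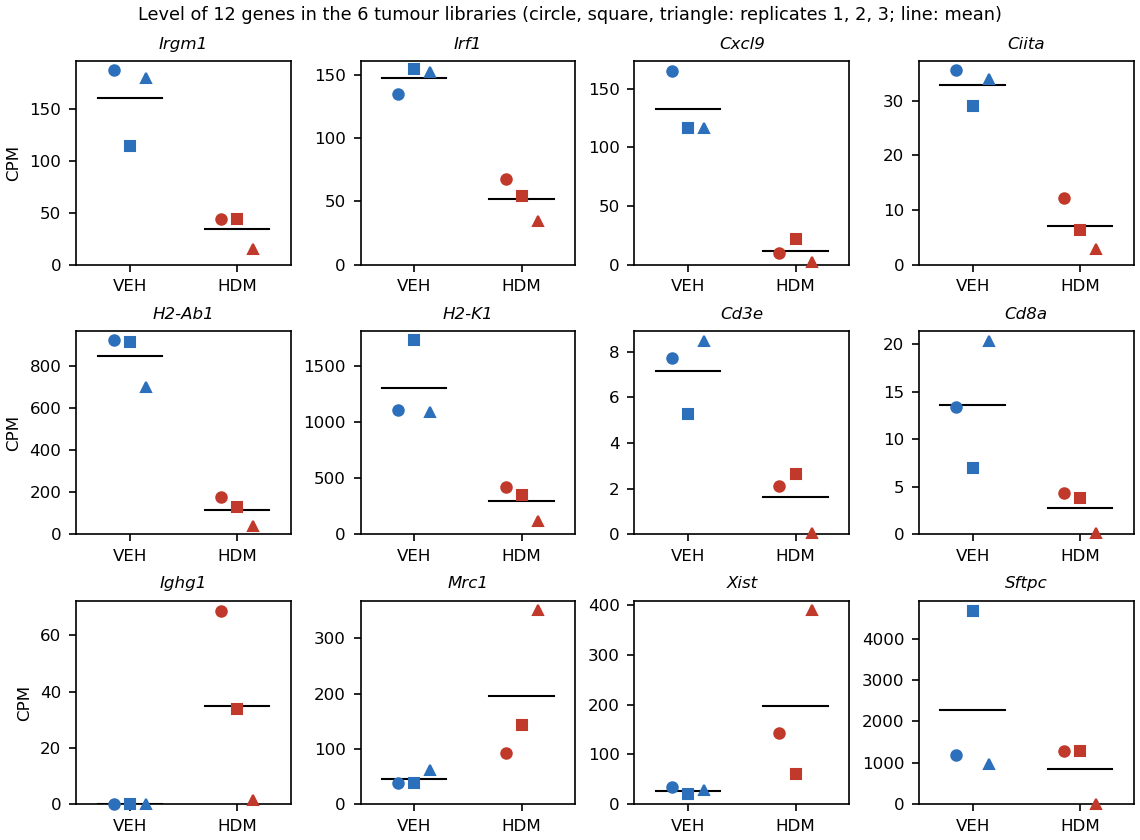
CPM of 12 genes in the 3 VEH tumours (blue) and 3 HDM tumours (red), each axis starting at 0, with a marker shape per replicate and a line at the group mean. The MHC, interferon and T cell genes are lower in every HDM library than in any VEH library, and Ighg1, Mrc1 and Xist are higher. Sftpc shows the alveolar RNA, scarce in HDM replicate 3 and highest in VEH replicate 2.

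Several other genes that fell are known to be interferon-inducible. Ly6a (chromosome 15, 74863840 to 74869880), which encodes the surface protein Sca-1, was at 61.7, 84.5 and 31.6 CPM under HDM and at 264, 331 and 294 CPM under VEH, and fell by 2.32 ± 0.31 on the log2 scale (edgeR quasi-likelihood adjusted p = 0.034). The other 8 measured Ly6 genes did not pass, all were negative, and the list median was -1.59. Ifitm3, a membrane protein that blocks virus entry, was at 327, 373 and 285 CPM under HDM and at 652, 568 and 643 CPM under VEH. Its fall of 0.92 ± 0.14 was the smallest of the 19, and it overlaps Gm57251 on the opposite strand. Sp110, a nuclear body protein, fell by 1.51 ± 0.22, Nmi, an interferon-induced protein, by 1.31 ± 0.19, and Fgl2, a fibrinogen-like protein of immune cells, by 1.66 ± 0.25 (edgeR quasi-likelihood adjusted p = 0.0446 for these 4 genes).

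Gm46657, a predicted gene, fell by 1.34 on the log2 scale. Ccdc184 and Klk8 were scarce transcripts. Ccdc184 was at 0.0821, 0.137 and 0.0607 CPM under HDM and at 1.19, 2.01 and 0.738 CPM under VEH, so its fall of 3.76, the largest of the 19, rests on few reads. Klk8, a secreted serine protease, was at 0.329, 0.410 and 0.425 CPM under HDM and at 3.14, 2.83 and 1.85 CPM under VEH. Klk8 was the one gene that fell in which HDM replicate 1, and not HDM replicate 3, was the lowest library.

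Abca1 and Abcc5, both ATP-binding cassette transporters, were the 2 genes that rose. Abca1 (chromosome 4, 53030787 to 53159900), which exports cholesterol from cells, was at 68.6, 73.6 and 64.1 CPM under HDM and at 34.1, 26.6 and 32.8 CPM under VEH, a rise of 1.14 ± 0.14 on the log2 scale or 2.21-fold (edgeR quasi-likelihood adjusted p = 0.0274). Abcc5 (chromosome 16, 20150053 to 20245192), an exporter of cyclic nucleotides and other anions, was at 61.5, 78.5 and 59.6 CPM under HDM and at 26.8, 27.1 and 36.4 CPM under VEH, a rise of 1.15 ± 0.17 (edgeR quasi-likelihood adjusted p = 0.0446). The HDM libraries were close together in both, and HDM replicate 3 did not stand apart.

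Behind them came 10 genes that did not pass, with edgeR quasi-likelihood adjusted p-values of 0.0527 to 0.0936. They include the chromatin enzymes Setd7 (log2 difference 0.93), Kdm5a (0.78) and Kdm7a (1.38), the Notch coactivator Maml3 (1.16) and the Mediator subunit Med13 (0.57). Kdm7a was at 70.7, 109 and 97.5 CPM under HDM and at 34.5, 35.0 and 36.6 CPM under VEH. They also include Man2c1, Evi5, Arl14ep and Raph1, with log2 differences of 0.70 to 1.03. The 10 next genes on the lower side include H2-DMb1, H2-Eb1, Tap1, Irgm1 and Irf9, which are presentation or interferon genes of the lists.

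T and NK cell markers were low in every HDM tumour. All 21 measured genes were negative, with a median of -2.15, and none passed the adjusted test. Of the 21, 17 had an unadjusted p below 0.05 and 17 were without overlap, against 11.3% and 10.7% of all genes on the lower side. The summed level of the list was 50.9, 58.7 and 14.4 CPM under HDM and 178, 125 and 171 CPM under VEH. Cd3e, a chain of the T cell receptor complex, was at 2.14, 2.66 and 0.0607 CPM against 7.73, 5.28 and 8.49 CPM, and Cd8a was at 4.31, 3.83 and 0.182 CPM against 13.4, 6.99 and 20.3 CPM. Tbx21, the factor of type 1 lymphocytes, was at 0.164, 0.342 and 0.243 CPM against 2.38, 1.86 and 2.86 CPM, the list's lowest log2 difference at -3.21 ± 0.62. Foxp3, the factor of regulatory T cells, differed least, at 7.68, 6.797 and 4.94 CPM against 9.73, 10.003 and 7.01 CPM, and its groups overlapped. In bulk tissue, fewer cells of a type and less RNA per cell cannot be told apart. The part of this lower lymphocyte RNA in the lower interferon and MHC levels was not tested.

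Macrophage and monocyte markers gave no such pattern. None of 14 had an unadjusted p below 0.05, the median was -0.01, and the summed level was 2100, 2345 and 1849 CPM under HDM and 2682, 2165 and 1931 CPM under VEH. Within the list 3 of 14 genes were lower without overlap, against 10.7% of all genes. These were the complement genes C1qa, C1qb and C1qc, with log2 differences of -0.51 to -0.69 that did not pass. Genes of alternatively activated macrophages went both ways. Mrc1, the mannose receptor, was at 91.9, 143 and 352 CPM under HDM and at 37.9, 38.6 and 61.1 CPM under VEH (log2 difference 2.09 ± 0.88), while Mgl2 was at 3.61, 2.66 and 3.46 CPM against 30.9, 23.7 and 18.2 CPM (-2.90 ± 0.46). Neither passed, with edgeR quasi-likelihood adjusted p-values of 0.276 and 0.0527. Of 10 dendritic cell genes, 8 were negative and 7 were lower without overlap, against 10.7% of all genes, with a median of -1.45. At an unadjusted p below 0.05, 5 were lower, against 11.3% of all genes. The count of 5 became 2 without HDM replicate 3, and 3 without HDM replicate 2 or VEH replicate 2.

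**Figure D4:**
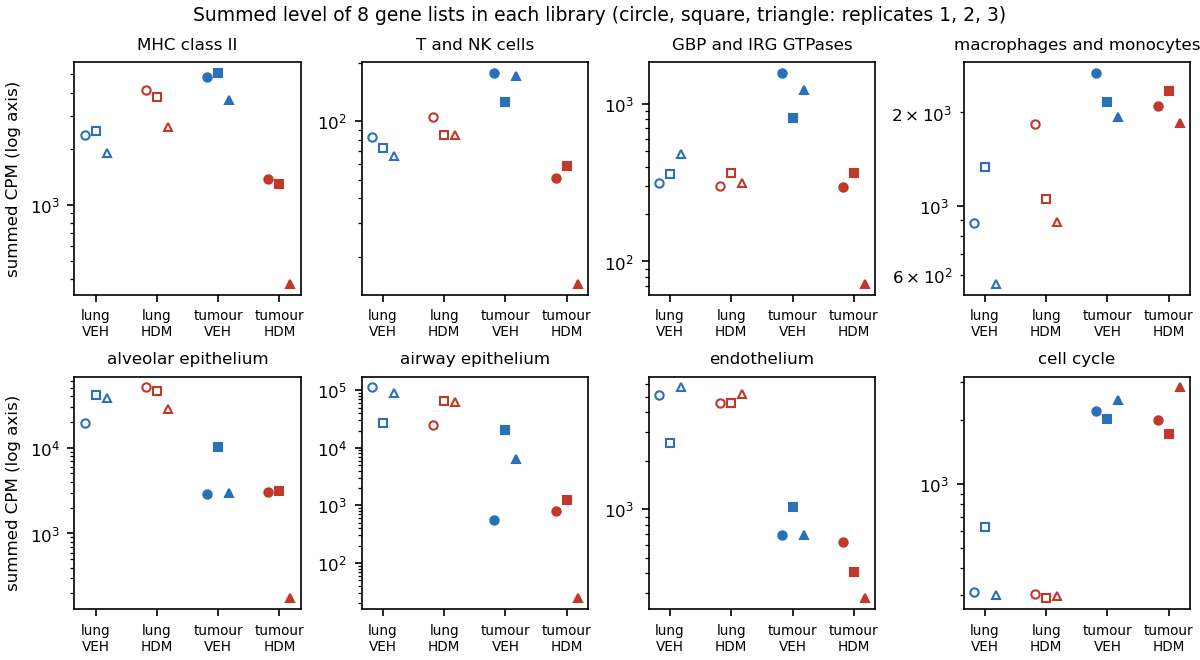
Summed CPM of 8 gene lists in all 12 libraries on log axes, with open symbols for adjacent lung, filled symbols for tumours, red for HDM, blue for VEH and a marker shape per replicate. MHC class II, T and NK cell and GBP and IRG levels are lower in each HDM tumour than in each VEH tumour, while alveolar and airway levels are set apart by HDM replicate 3 and VEH replicate 2.

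Genes of the allergic response showed no common direction in tumours. Of 16 listed type 2 genes 12 passed the filter on low counts, Il5, Il13, Il25 and Ccr3 were not tested, and the median was 0.23. Il33, an epithelial and stromal alarmin, was at 166, 169 and 234 CPM under HDM and at 49.1, 119 and 71.0 CPM under VEH, without overlap, a log2 difference of 1.25 ± 0.71 that did not pass (edgeR quasi-likelihood adjusted p = 0.397). Gata3 was at 0.411, 0.137 and 0.121 CPM against 1.78, 2.64 and 0.923 CPM. Of 13 B and plasma cell genes, 8 were negative, 2 were lower and 1 was higher at an unadjusted p below 0.05, and the median was -0.48. Over all genes 11.3% were lower and 5.33% higher at that threshold. Transcripts of the IgG1 and IgA heavy chains were highest in HDM replicates 1 and 2. Ighg1 was at 68.8, 33.9 and 1.49 CPM under HDM and at 0.0425, 0 and 0.0923 CPM under VEH, at least 276-fold higher as group means, taking 3 counts per VEH library as the floor (edgeR quasi-likelihood adjusted p = 0.259). Igha was at 80.7, 93.4 and 0.849 CPM against 8.75, 8.33 and 2.58 CPM, so HDM replicate 3 fell below all VEH libraries. The goblet cell mucin Muc5ac was at 0.739, 0.478 and 0 CPM against 0.425, 11.9 and 3.41 CPM. All 8 goblet cell genes were negative, 3 with an unadjusted p below 0.05, and none passed the adjusted test. Their median was -3.74, and ran from -5.95 to -1.17 over the alternative fits. Their summed level was 131, 28.0 and 0.546 CPM under HDM and 23.1, 1527 and 270 CPM under VEH, so the groups overlapped.

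Other compartments differed in part. Endothelial markers were negative in 15 of 15 genes, 8 with an unadjusted p below 0.05 and 7 without overlap, with a median of -1.07. Over all genes 11.3% were lower at that threshold and 10.7% were lower without overlap. The count of 8 was 3 without HDM replicate 3, 4 without HDM replicate 2, 2 without VEH replicate 2 and 13 without HDM replicate 1. Without HDM replicate 3 and VEH replicate 2 together it was 0, with 13 of 15 negative and a median of -0.42. Pecam1 was at 69.2, 38.6 and 29.5 CPM under HDM and at 81.2, 127 and 79.0 CPM under VEH. Airway markers had a median of -3.47 and alveolar markers one of -1.35, with HDM replicate 3 and VEH replicate 2 at the extremes; their part in the other results was not tested beyond the fit without these libraries. Cell cycle genes had a median of -0.05 with none of 24 at an unadjusted p below 0.05, and fibroblast and matrix genes had a median of 0.11. Xist, the transcript of the inactive X chromosome, was at 143, 59.8 and 390 CPM under HDM and at 33.9, 19.7 and 27.6 CPM under VEH (log2 difference 2.87 ± 0.63, edgeR quasi-likelihood adjusted p = 0.13), and all 6 tumours also held the Y-linked Ddx3y, at 9.07 to 14.7 CPM. Xist was at 0.566 to 3.68 CPM in the adjacent lung libraries.

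Without HDM replicate 3 and VEH replicate 2, the libraries at both ends of the alveolar range, 17 genes passed the adjusted test and all were lower in HDM tumours. Of these, 5 were among the 21: Ube2l6, Ly6a, Psmb8, Psmb9 and H2-Ab1. The others include Tap1, H2-Aa, H2-Eb1, Igtp, Irgm1, Irgm2 and Iigp1, which had not passed with all libraries. Abca1 and Abcc5 did not pass. At an unadjusted p below 0.05, lower members numbered 11 of 12 for MHC class II, 5 of 5 for the immunoproteasome, 17 of 18 for the GBP and IRG list and 16 of 21 for T and NK cells in these 4 tumours, where 4.21% of all genes were.

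In adjacent lung no gene passed the adjusted test between treatments as labelled (edgeR quasi-likelihood test), with 1230 (5.54%) at an unadjusted p below 0.05. Normal lung log2 differences of the 19 genes that fell in tumours ran from -0.55 to 0.44, and all 21 had a larger absolute difference in tumours than in lung. The 21 were chosen by their tumour difference, so a smaller difference in lung is likely from the choice alone. List medians in lung were 0.54 for MHC class II, 0.04 for MHC class I, -0.22 for the immunoproteasome, -0.25 for the GBP and IRG list and 0.53 for T and NK cells. For MHC class II the summed level in lung, 1888 to 4106 CPM, was above that of every HDM tumour (373 to 1369 CPM) and overlapped the range of the VEH tumours (3660 to 5104 CPM).

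Whether the treatment difference itself differed between tumour and lung was tested by the interaction term. No gene passed (edgeR quasi-likelihood test, 0%), and 2084 (9.39%) had an unadjusted p below 0.05. All 21 genes were among these, with edgeR adjusted p-values of 0.286 to 0.521. The interaction contains the tumour difference by which the 21 were chosen, so their low unadjusted p-values are no separate support. DESeq2's Wald test gave 222 genes. Without HDM tumour replicate 3, 6 genes passed: Psmb8, H2-Ab1, H2-Aa, H2-Eb1, Gm20513 and Cd74. This fit does not use the link between a tumour and a normal library of the same prefix. With the prefix as a block, no gene passed either (smallest edgeR adjusted p = 0.253), 2411 had an unadjusted p below 0.05, and the 21 genes had adjusted p-values of 0.299 to 0.448. Both lung comparisons rest on the 2 normal libraries that went against their labels. Without these, 39 genes passed in adjacent lung, none from the lists named in the preceding paragraph, whose medians were 0.66, 0.12, -0.21, -0.18 and 0.57 in the same order, and 1 gene, an immunoglobulin segment, passed the interaction test.

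**Figure D5:**
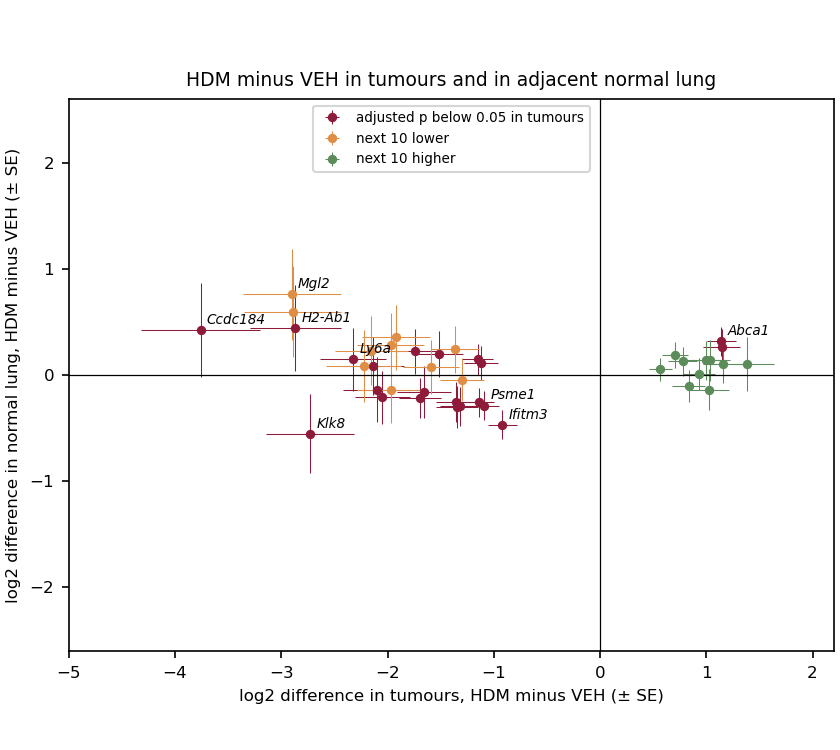
Log2 difference between HDM and VEH in tumours (horizontal) and in adjacent normal lung (vertical), with standard errors, for the 21 genes past the adjusted test and the 10 next genes in each direction, most of them unlabelled. Points spread from -3.76 to 1.38 along the tumour axis and stay between -0.55 and 0.76 along the lung axis. The genes were chosen by their tumour difference, which by itself favours a wider spread along that axis.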

How the data were processed

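RNA sequencing counts of 12 libraries in 4 groups of 3 were used, grouped by their titles. The authors deposited raw counts per Ensembl gene; the submitters' processing notes name Trim Galore, STAR, featureCounts, Subread and the build mm39, and the strand setting is not given in the sources used here. Per the labels' protocols, libraries were stranded by dUTP. Symbols and positions came from GENCODE M39 on GRCm39, and 130 of 78298 identifiers, with 0.143% of counts, were not in it.

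Counts were fitted in R 4.3.3 with edgeR 4.0.16 over all 12 libraries, after filterByExpr (minimum count 10, 22190 genes kept) and TMM scaling, with a robust quasi-likelihood F-test, two-sided, and Benjamini-Hochberg adjustment over all genes. The fit was tested on simulated data first. The simulation used a low spread or the estimated spread capped at its median. Apart from the genes changed on purpose, each gene had the same mean in all groups. It therefore does not show how the fit behaves for the noisier genes. Levels are CPM after TMM. A standard error is the log2 difference divided by the square root of F. The normal lung libraries share the estimate of spread. Alternatives included DESeq2 1.42.0.

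The named genes are every gene past an adjusted p of 0.05, then the 10 genes per direction with the smallest p among the rest with a symbol, a mean level of 3 or more in log2 CPM and groups that do not overlap, outside immunoglobulin and T cell receptor segments, and members of 35 gene lists. Members, lists and patterns were chosen with earlier results of these data known, and the lists are described without a test. Promoter patterns were planned for the genes past the threshold, and the lists were added afterwards. Some genes that the rule selects are not reported here.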

Additional observations from a re-analysis of the deposited data

How the results depend on the processing

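The 21 genes past the threshold between HDM and VEH tumours numbered 17 with DESeq2 size factors in edgeR, 8 with scaling by library size only, 52 without a filter on low counts, 53 with at least 10 counts required in every library and 1311 (255 higher, 1056 lower) with DESeq2's Wald test. The count was 0 when only the tumour libraries were fitted and 0 without the 4 libraries of conflicting prefixes, both with fewer libraries in the fit. With each tumour library left out in turn it ran from 0 to 24. A fit with the replicate number as a block gave 1 gene. Same-numbered HDM and VEH tumours had deviations from their group means that correlated at -0.243, 0.235 and 0.0332. Pairs with different numbers ran from -0.333 to 0.328. With 3 libraries per group these values cannot decide whether the numbers pair the tumours. Settings added after seeing the data gave 17 genes without both ends of the alveolar marker range and 0 genes without the 2 normal libraries of conflicting prefixes. The cause of these shifts was not tested. For the interaction, where 0 genes passed, DESeq2's Wald test gave 222, leaving out each tumour library gave 0 to 6, leaving out both ends of the alveolar range gave 1, and leaving out the 2 normal libraries of conflicting prefixes gave 1. With the prefix as a block, added after seeing the data, 0 genes passed over 12 libraries and 0 over the 8 without conflicting prefixes. Scaling by library size only moved the median log2 difference of all genes from -0.03 to 0.05. None of the 21 genes or of the 10 next in each direction reversed in any alternative fitted. In all of these genes the groups do not overlap, so a reversal was hardly possible. Of the 403 other list members, which were not chosen by overlap, 121 changed sign in at least 1, so the 2 results cannot be compared. Medians of the immunoproteasome, MHC class I, MHC class II, GBP and IRG and T and NK cell lists stayed between -2.79 and -1.18 over all alternatives. Transcripts below 1 CPM rest on few reads, and with 3 libraries per group a gene's spread is known poorly.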

Other observations

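Several gene groups not described above differed little or in part. Among 14 checkpoint ligands and receptors, none passed the adjusted test and 5 were lower at an unadjusted p below 0.05, with a median log2 difference of -0.99. Of all genes 11.3% were lower at that threshold. The count of 5 was 3 without HDM replicate 3 or without VEH replicate 1. Lag3, an inhibitory receptor of T cells, was at 1.56, 2.53 and 0.849 CPM in HDM tumours and at 8.497, 6.02 and 9.04 CPM in VEH tumours. Cd274, which encodes PD-L1, was at 18.9, 21.1 and 4.58 CPM against 35.7, 13.7 and 30.1 CPM, and the groups overlapped. The 15 hypoxia and glycolysis genes had a median of 0.01, the 12 ribosome biogenesis genes one of -0.06 and the 11 targets of the stress factor ATF4 one of -0.21. Among genes of epithelial-mesenchymal transition, Zeb2, a repressor of epithelial genes, was at 125, 143 and 88.9 CPM under HDM and at 83.2, 61.3 and 69.9 CPM under VEH, without overlap, and did not pass. The neutrophil chemokine Cxcl1 was at 4.76, 12.6 and 15.6 CPM against 1.87, 2.01 and 4.43 CPM and did not pass either.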
